A study of Bos taurus with 6 samples.

Results

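The fibrillar collagens of types I and III were followed by RNA sequencing of fibrocytes from cattle (Bos taurus), as 3 of the 36075 genes listed in each library. The genes were chosen by Ensembl ID, with earlier results of these data known. They are COL1A1 (ENSBTAG00000013103), which encodes the α1 chain of type I collagen, COL1A2 (ENSBTAG00000013472), which encodes its α2 chain, and COL3A1 (ENSBTAG00000021466), which encodes the single kind of chain in type III collagen. Nucleated blood cells were plated on 0.1% gelatin in 1 of 2 media. Fibroblast medium (FbM) was DMEM of high glucose with non-essential amino acids, penicillin-streptomycin and 20% fetal bovine serum. Fibrocyte medium (FcM) was the same mix with 6 additives. These were dexamethasone at 10 nM, L-ascorbic acid-2-phosphate at 0.1 mM, PDGF-BB at 10 ng/mL, EGF at 10 ng/mL, A83-01 at 0.5 μM and CHIR99021 at 1.5 μM. Dexamethasone is a synthetic glucocorticoid, A83-01 inhibits the TGF-β type I receptor ALK5 and its close relatives, and CHIR99021 inhibits the kinase GSK-3. Each medium has 3 libraries, whose titles end in the same 3 numbers, so FbM_1962 has FcM_1962 beside it, FbM_1944 has FcM_1944 and FbM_1951 has FcM_1951. These are called the _1962, _1944 and _1951 pairs here. What the numbers identify is not in the labels, nor whether each culture had its own animal, and p-values therefore measure the spread between these libraries alone.

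Type I collagen is the main load-bearing fibre of skin, tendon and bone, and type III forms finer fibres beside it in stretchable tissues and in healing wounds. Each chain is made as a procollagen in the endoplasmic reticulum, where prolines are hydroxylated by enzymes that need ascorbate, before 3 chains wind into a triple helix and are secreted. Transcription of these genes is raised by TGF-β in many mesenchymal cells and lowered by glucocorticoids in several. Fibrocytes are blood-borne cells defined by leukocyte markers together with production of collagen, so type I collagen is one of the markers of the labelled cell type. All 6 additives were changed together, and the part of any one of them cannot be told apart from that of the others.

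The type I and III collagen transcripts were absent from the counts of both libraries of the _1962 pair and present in all 4 others, where they stood far higher in FcM than in FbM. FbM_1962 and FcM_1962 had 0 reads for each of the 3 genes, among 16143812 and 16408604 gene reads. A count of 0 allows a level of up to 0.186 and 0.183 CPM in these libraries, taken as 3 reads (CPM is the read count scaled to a common library size, and the limit covers counting error only). Depth in the other 4 libraries was 15925280 to 19149516 gene reads. The _1962 libraries listed 17969 and 17749 genes with at least 1 read, against 17352 to 19431 in the others. Unmapped reads were 16.4% of all reads in FbM_1962 and 19.6% in FcM_1962, against 12.1% to 17.6% in the others, and their part in the result was not tested. By this defining marker, the cells of the _1962 libraries did not show the collagen transcripts of the labelled cell type at this depth. The leukocyte markers were not analysed here. In bulk RNA, fewer collagen-making cells and less collagen RNA per cell cannot be told apart.

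COL1A1 stood at 0 CPM in FbM_1962, 330.7 CPM in FbM_1944 and 18.3 CPM in FbM_1951. It stood at 0 CPM in FcM_1962, 23179 CPM in FcM_1944 and 7427 CPM in FcM_1951. Both FcM libraries with reads lay far above every FbM library, and FcM_1962 lay at the bottom with FbM_1962, so the media overlapped. The mean was 116 ± 186 CPM over the FbM libraries (SD, n = 3) and 10202 ± 11836 CPM over the FcM libraries (SD, n = 3), with an SD above the mean in each medium.

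COL1A2 stood at 0 CPM in FbM_1962, 236 CPM in FbM_1944 and 19.2 CPM in FbM_1951. In FcM it stood at 0 CPM in FcM_1962, 13675 CPM in FcM_1944 and 4061 CPM in FcM_1951. The libraries fell in the same order as for COL1A1. The mean was 85.2 ± 131 CPM over the FbM libraries (SD, n = 3) and 5912 ± 7023 CPM over the FcM libraries (SD, n = 3).

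COL3A1 stood at 0 CPM in FbM_1962, 76.8 CPM in FbM_1944 and 3.66 CPM in FbM_1951, the last from 70 reads. In FcM it stood at 0 CPM in FcM_1962, 5453 CPM in FcM_1944 and 1005 CPM in FcM_1951. Its mean was 26.8 ± 43.3 CPM over the FbM libraries (SD, n = 3) and 2153 ± 2902 CPM over the FcM libraries (SD, n = 3). All 3 genes thus ran FcM_1944, FcM_1951, FbM_1944 and FbM_1951 from high to low. Counting intervals of neighbours in that order did not overlap for any of the 3 genes, a statement on these libraries and not on the media.

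**Figure D1:**
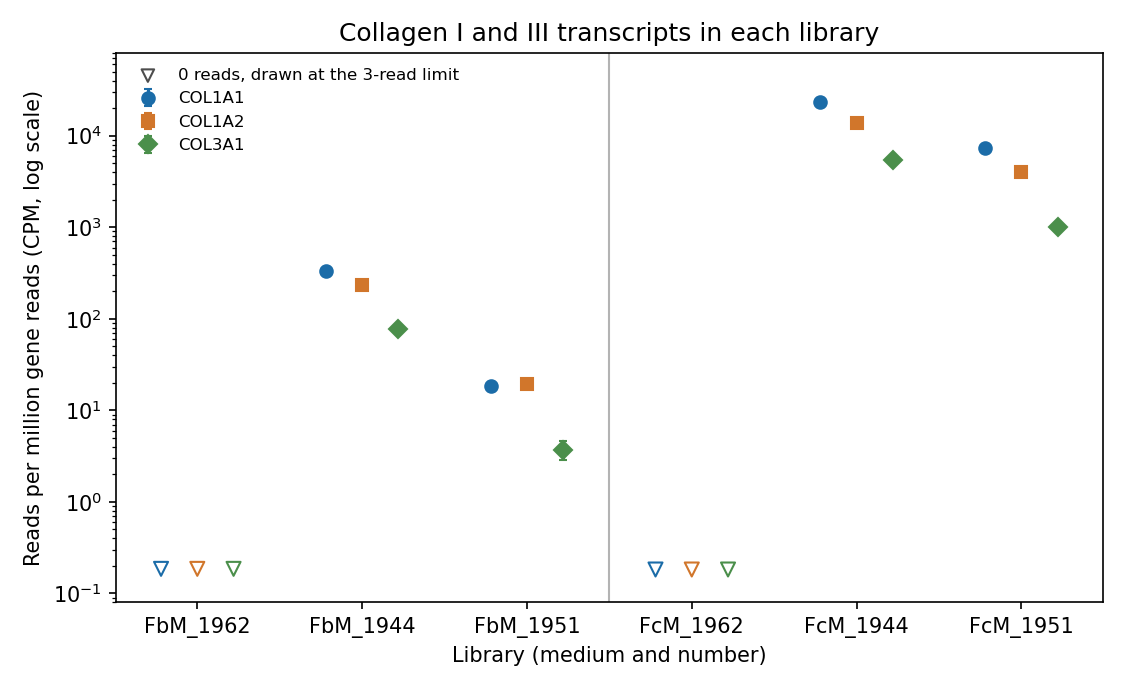
Level of COL1A1, COL1A2 and COL3A1 in each of the 6 libraries, in CPM on a log scale, with 95% exact binomial counting intervals that are mostly smaller than the symbols. Open triangles mark libraries with 0 reads, drawn at the limit of 3 reads (0.186 CPM in FbM_1962 and 0.183 CPM in FcM_1962); COL1A1 reaches 23179 CPM in FcM_1944.

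Within FcM, the gap between FcM_1962 and each other library was larger than the gap between the media within the _1944 or the _1951 pair. COL1A1 was at least 126777-fold higher in FcM_1944 than in FcM_1962 and at least 40623-fold higher in FcM_1951, with FcM_1962 set at 3 reads. For COL3A1, the least covered of the 3, the bounds were 29828-fold and 5497-fold. Within FbM the COL1A1 bounds against FbM_1962 were 1780-fold for FbM_1944 and 98.4-fold for FbM_1951. No fold between the media can be given for the _1962 pair, since both of its libraries were at 0.

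Read as a share of all gene reads, the 3 genes together took 0.0644% in FbM_1944 and 0.00411% in FbM_1951. They took 4.23% in FcM_1944 and 1.25% in FcM_1951 (95% exact intervals 4.22% to 4.24% and 1.24% to 1.25%). COL1A1 took more reads than any other gene in FcM_1944 and ranked 3 in FcM_1951, against 430 in FbM_1944 and 7255 in FbM_1951. COL1A2 ranked 3 in FcM_1944 and 12 in FcM_1951, and COL3A1 ranked 7 and 83. These ranks are by reads and not per length, so long transcripts rank higher at the same number of molecules. The mean share was 0.0228% ± 0.0360 over the FbM libraries (SD, n = 3) and 1.83% ± 2.17 over the FcM libraries (SD, n = 3). On the log2 scale, with the _1962 pair set at 3 reads, an exact permutation test (two-sided) gave p = 0.6 (0.9 after Benjamini-Hochberg adjustment over 3 measures), where 3 libraries against 3 allow 0.1 at the lowest.

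Within each pair that had reads, all 3 genes were higher in FcM than in FbM. For the _1944 pair the fold in CPM was 70.1 for COL1A1, 57.9 for COL1A2 and 71.0 for COL3A1. For the _1951 pair it was 406 for COL1A1, 211 for COL1A2 and 275 for COL3A1. The 95% counting intervals were 68.3 to 72.0 for COL1A1 in the _1944 pair and 366 to 453 in the _1951 pair. Each comparison sets 1 library against 1, so the intervals cover counting error only and the difference between the pairs has no replicate check. The larger folds in the _1951 pair went with lower FbM levels, which are the denominators of these folds. COL1A1 in FbM was 18.1-fold higher in FbM_1944 than in FbM_1951, while in FcM it was 3.12-fold higher in FcM_1944 than in FcM_1951. COL1A1 had the largest gain in CPM of any gene in both pairs, 22848 CPM in the _1944 pair and 7409 CPM in the _1951 pair. By the same gain COL1A2 ranked 2 in the _1944 pair and 4 in the _1951 pair, and COL3A1 ranked 4 and 27.

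The balance of the 2 genes of type I collagen differed between the libraries that had reads. The ratio of COL1A1 to COL1A2 reads was 1.40 in FbM_1944 and 0.951 in FbM_1951, against 1.69 in FcM_1944 and 1.83 in FcM_1951. The ratio was higher in both FcM libraries than in both FbM libraries, but an exact permutation test of the log2 ratios (two-sided) gave p = 0.333 (0.9 adjusted over 3 measures), the smallest value that 2 libraries against 2 allow. The mean log2 ratio was 0.21 in FbM and 0.82 in FcM. These are ratios of reads, so each holds the lengths of the 2 transcripts as well as their numbers, and only its change between libraries can be read.

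The ratio of COL3A1 to COL1A1 reads did not separate the media. It was 0.232 in FbM_1944 and 0.235 in FcM_1944, with overlapping counting intervals (0.218 to 0.247 and 0.234 to 0.237). In the _1951 pair it was 0.20 in FbM_1951 and 0.135 in FcM_1951, where the intervals were 0.152 to 0.259 and 0.133 to 0.138. The difference in mean log2 ratio, FcM minus FbM, was -0.27, and the exact permutation test gave p = 1.0 (1.0 adjusted over 3 measures). FcM_1951 had the lowest COL3A1 to COL1A1 ratio of the 4 libraries.

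**Figure D2:**
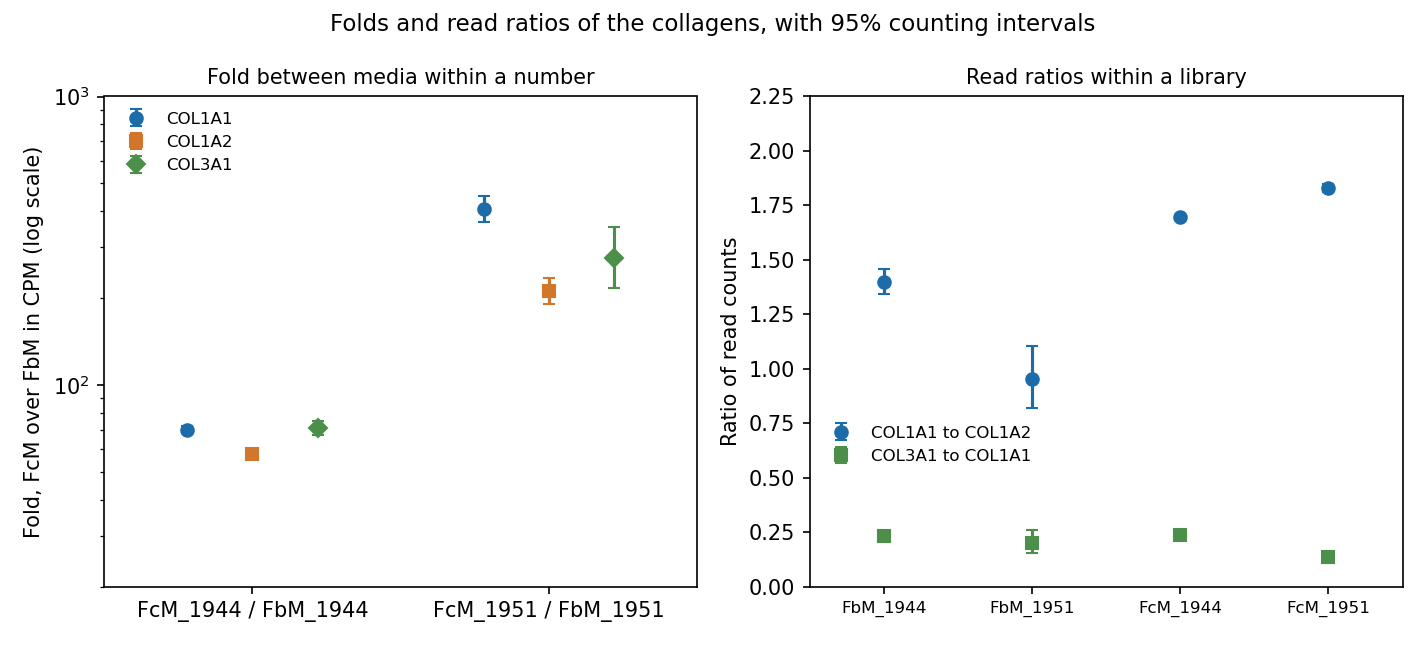
Left, fold in CPM of FcM over FbM for each collagen within the _1944 and _1951 pairs on a log scale; right, the ratios of COL1A1 to COL1A2 reads and of COL3A1 to COL1A1 reads in the 4 libraries with reads. Bars are 95% counting intervals; the folds lie between 57.9 and 71.0 in the _1944 pair and between 211 and 406 in the _1951 pair.

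With all 6 libraries, the difference between the media did not pass the edgeR quasi-likelihood test for any of the 3 genes. The fitted log2 fold change of FcM over FbM was 6.35 for COL1A1 (SE 3.55, adjusted p = 0.289), 6.01 for COL1A2 (SE 3.38, adjusted p = 0.291) and 6.23 for COL3A1 (SE 3.26, adjusted p = 0.261). The unadjusted edgeR p-values were 0.118, 0.119 and 0.0985. Of the 14211 genes tested, 1.10% were called higher in FcM at an adjusted p under 0.05, and 0 of the 3 collagens were. The fold changes ranked 58, 84 and 67 from the top among the 14211 genes, and each followed the ratio of the 2 means, which was 87.7 for COL1A1, 69.4 for COL1A2 and 80.3 for COL3A1. The spread within media was among the largest in the data. The biological coefficient of variation that edgeR fitted within media was 2.32 for COL1A1, 2.27 for COL1A2 and 2.20 for COL3A1, which ranked 2, 3 and 5 of 14211 genes, against 0.504, 0.495 and 0.473 for genes of the same level.

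The result depended on how the numbers entered the fit. With the number as a block, which compares FcM with FbM within each number, COL3A1 passed (log2 fold change 6.97, edgeR adjusted p = 0.0483). COL1A1 (7.26, adjusted p = 0.0739) and COL1A2 (6.65, adjusted p = 0.0567) did not. In the blocked fit 1.10% of the genes were called higher in FcM. The coefficient of variation there was 0.523 for COL1A1, 0.447 for COL1A2 and 0.449 for COL3A1. These ranked 2370, 3824 and 3757 of 14211 genes. The _1962 pair had no collagen reads in either library, so the blocked fold changes of the collagens rest on the _1944 and _1951 pairs. Without the _1962 pair, all 3 genes passed in edgeR. COL1A1 had a log2 fold change of 6.34 (SE 1.56, adjusted p = 0.0369), COL1A2 of 6.003 (SE 1.42, adjusted p = 0.0332) and COL3A1 of 6.22 (SE 1.65, adjusted p = 0.0455). In that fit 12.2% of 15098 genes were called higher in FcM, so a call there is far more common than with all 6 libraries. The fold changes of COL1A1, COL1A2 and COL3A1 ranked 410, 463 and 430 from the top there. The size of the change was nearly that of the 6-library fit, while the coefficient of variation of COL1A1 was 0.780 in place of 2.32. Neither _1962 library had collagen reads, so leaving out both was bound to nearly keep the ratio of the means and to lower the spread. This fit describes the 4 libraries that had collagen reads and says nothing of the _1962 pair. That pair stands apart by the same collagen counts that are tested, so these p-values are not separate support for a difference between the media. Adding the block to this fit, or testing the 4 libraries with DESeq2, kept all 3 genes called higher, where 18.1% and 15.8% of genes were. Both of these settings were added after the data were examined. Leaving out the _1944 or the _1951 pair instead gave edgeR adjusted p-values from 0.418 to 0.633 for the 3 genes. In these fits 0.049% of 14299 genes and 0 of 14133 genes were called higher in FcM. Each medium then held its _1962 library at 0 reads beside a library with collagen reads, so these fits cannot decide on the collagens. Without FcM_1962 alone, edgeR adjusted p-values were 0.0689, 0.0672 and 0.0562 for COL1A1, COL1A2 and COL3A1. In that fit 16.8% of 15341 genes were called higher in FcM.

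**Figure D3:**
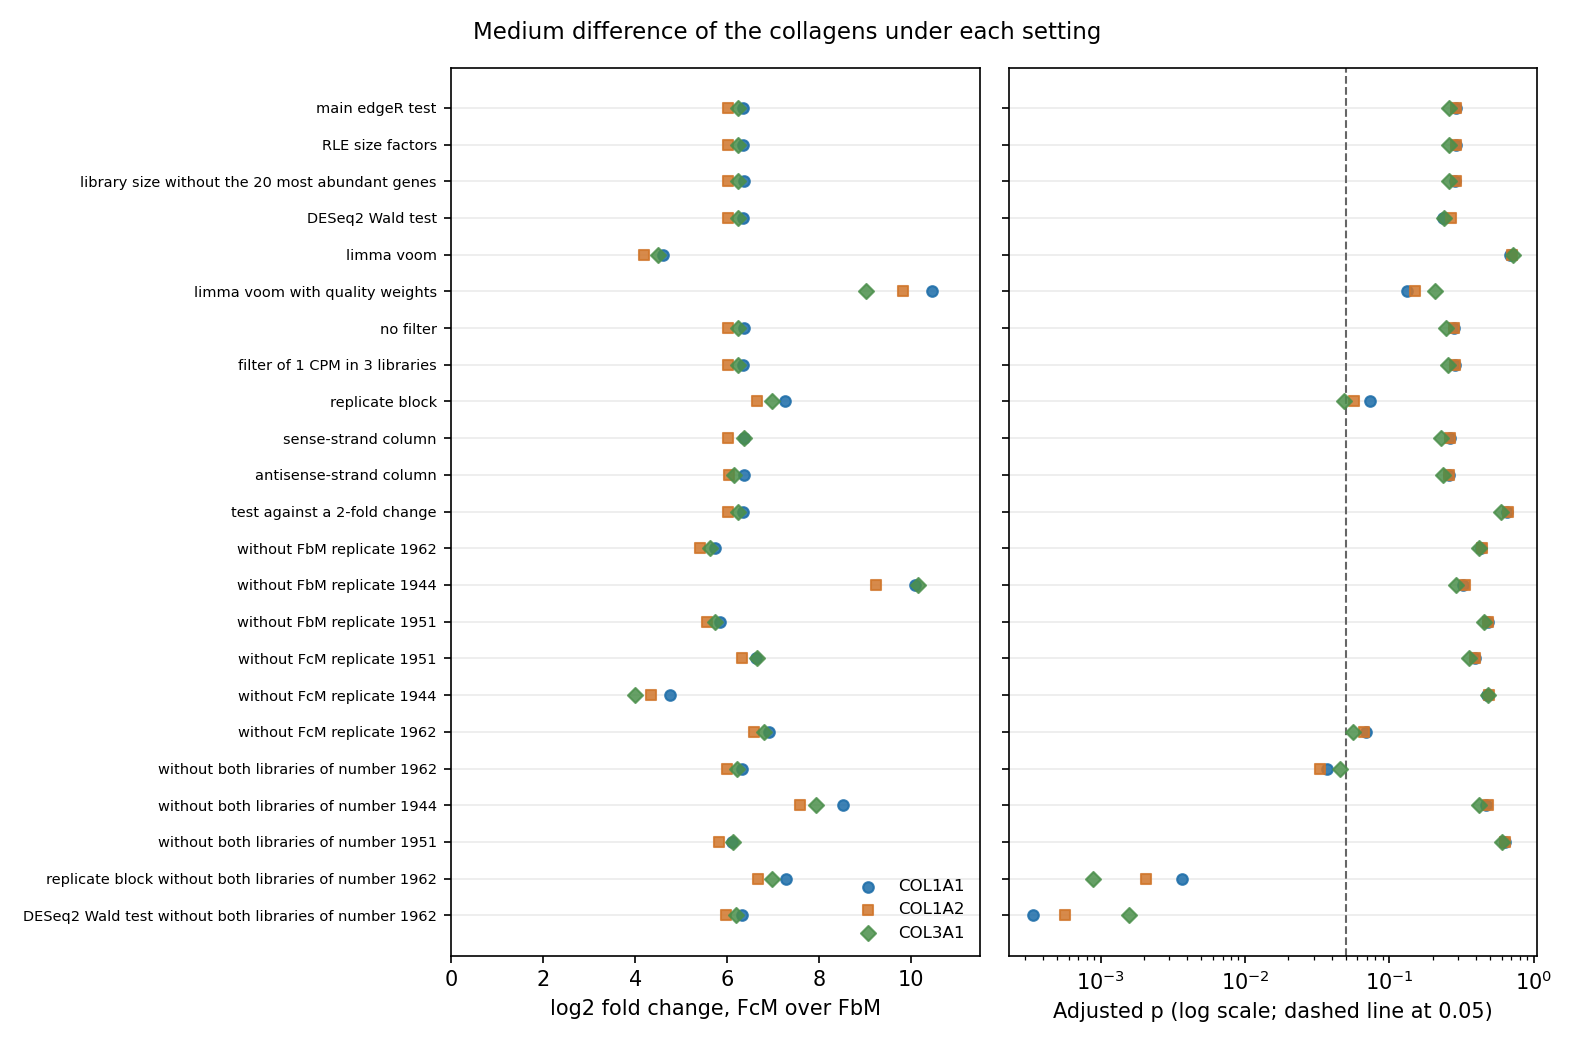
Fitted log2 fold change of FcM over FbM (left) and adjusted p on a log scale (right) for each collagen under the main edgeR test and each alternative. The fold changes lie from 3.99 to 10.47 in all settings, and all 3 genes fall under the dashed line at 0.05 in the settings without both libraries that end in _1962.

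The collagens were part of a larger group of genes that were lacking in the _1962 pair. A total of 79 genes had 0 reads in both _1962 libraries and at least 10 CPM in both FcM_1944 and FcM_1951, a group chosen after the collagen values were seen. The same rule gave 1 gene for the _1944 pair and 0 genes for the _1951 pair. In FcM_1944 the 79 genes summed to 55160 CPM, of which the 3 collagens made up 76.7%, and in FcM_1951 they summed to 20832 CPM, of which the collagens made up 59.97%. In FbM_1944 and FbM_1951 they summed to 986 and 69.2 CPM. The bound was set on the FcM libraries alone, so the rule itself favours lower sums in FbM. At a bound of 1000 CPM in both FcM libraries the group held 5 genes, 3 of them the collagens. Among the 14211 genes tested, 51 (0.359%) had 0 reads in both _1962 libraries and the same order of the other 4 libraries as the collagens. This pattern was read from the collagens, so the 3 are among these genes by construction.

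**Figure D4:**
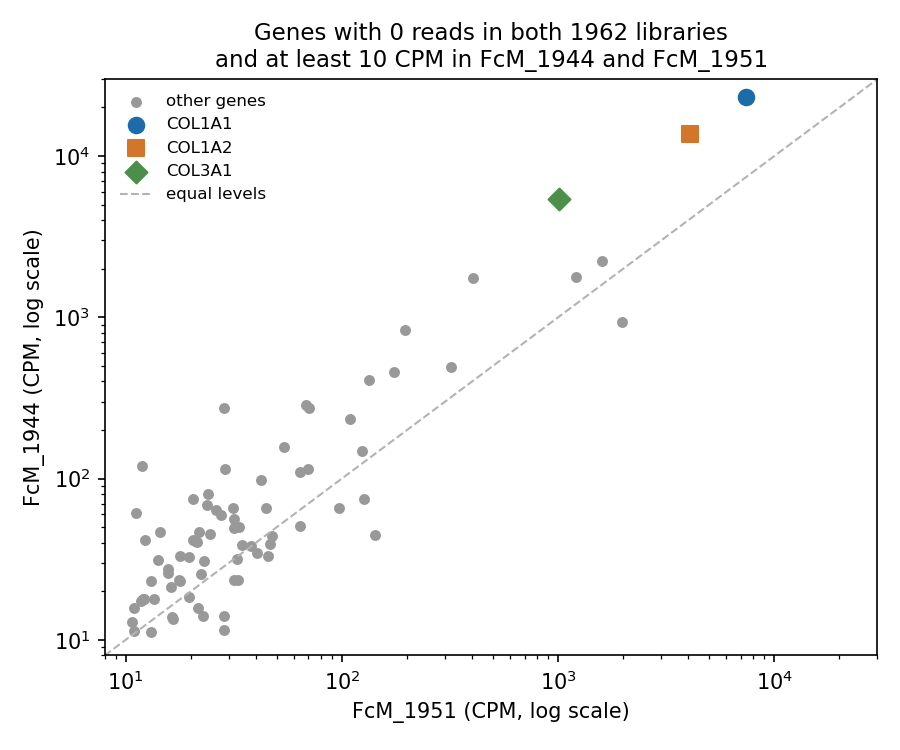
Level in FcM_1944 against FcM_1951, in CPM on log scales, of the 79 genes with 0 reads in FbM_1962 and FcM_1962 and at least 10 CPM in both libraries shown. The 3 collagens have the highest levels in FcM_1944, with COL1A1 at 23179 CPM there and 7427 CPM in FcM_1951, while 3 other genes lie above COL3A1 in FcM_1951, and the dashed line marks equal levels.

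The genes most like the collagens were found by Pearson correlation of log2 CPM over the 6 libraries with the mean of the 3 collagens, among 9428 other tested genes with a mean of at least 10 CPM. The 2 with the highest correlation were ENSBTAG00000019269 (r = 0.998) and ENSBTAG00000011802 (r = 0.998). ENSBTAG00000019269 stood at 57.1 and 6.53 CPM in FbM_1944 and FbM_1951 and at 1769 and 1205 CPM in FcM_1944 and FcM_1951. ENSBTAG00000011802 stood at 86.4 and 6.58 CPM in FbM_1944 and FbM_1951 and at 2227 and 1599 CPM in FcM_1944 and FcM_1951. Both had 0 reads in the _1962 libraries, and 8 of the 9428 genes had r of 0.99 or more. The correlations are over 6 libraries in 3 pairs, of which the _1962 pair is at 0, and are given as a description. No gene symbols were paired with these IDs.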

How the data were processed

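Messenger RNA was selected with poly-T beads from total RNA and primed with random hexamers, per the labels' protocols. The authors deposited raw read counts per gene for each library, in STAR's layout with 4 summary lines, which were left out. STAR and edgeR and the build ARS-UCD1.2 are named per the submitters' processing notes; their versions were not given in the sources used here. Unstranded counts were used, so antisense reads cannot be told apart. The sense column held 45.7% to 51.0% of the stranded reads of each collagen where it had reads. Reads in no feature were 12.9% to 21.7% of aligned reads.

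Libraries were grouped by title; the protocol abbreviates the fibrocyte medium differently. CPM used all gene reads. The test was edgeR 4.0.16 under R 4.3.3 (filter by filterByExpr, TMM scaling, glmQLFit, glmQLFTest; Benjamini-Hochberg over all 14211 genes tested; threshold 0.05). SE was taken from the log2 fold change and F. The script was tested on simulated data. Single values were compared by exact permutation of libraries. Pairs were taken from the numbers in the titles, and what the numbers identify is not in the labels. Libraries of the same number deviated together from their medium's mean across genes. For the _1962, _1944 and _1951 pairs r was 0.341, 0.400 and 0.255, against -0.369 to 0.0874 for libraries of unlike number. Each mean is over 3 libraries, which limits this check. Alternatives used DESeq2 1.42.0, limma 3.58.1, other scalings and filters, each strand, the block, and libraries left out.

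The 3 collagens and the planned lists were chosen with earlier results of these data known. Symbols of the 3 collagens came with the choice of genes. The planned pathway and marker lists were not tested, since 0 of 37063 rows of the RefSeq gene table (assembly ARS-UCD2.0) carried an Ensembl ID. By the rule for named genes, the collagens and the genes most like them were to be named, and for want of symbols only the 2 most alike are. Coordinates and sequences are not given.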

Additional observations from a re-analysis of the deposited data

How the results depend on the processing

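All 3 collagens were higher in FcM in all 22 alternatives, and whether they passed turned on the _1962 pair. Adjusted p ranged from 0.000342 to 0.687 for COL1A1, 0.000564 to 0.711 for COL1A2 and 0.000888 to 0.723 for COL3A1. Passing values (log2 fold change of COL1A1, COL1A2 and COL3A1) came without the _1962 pair in edgeR (6.34, 6.003 and 6.22) and, in 2 settings added after the data were examined, in edgeR with the replicate block (7.28, 6.68 and 6.98) and DESeq2 (6.32, 5.99 and 6.21). With all libraries the replicate block brought only COL3A1 under the threshold (6.97), a value that rests on the _1944 and _1951 pairs. Without 1 library the values ran from 4.76 to 10.09 for COL1A1, 4.34 to 9.24 for COL1A2 and 3.99 to 10.16 for COL3A1. They were lowest without FcM_1944 and highest without FbM_1944, and none passed. Of all genes, 0 were called higher in FcM without FbM_1962, FbM_1944, FbM_1951 or FcM_1951, so failing there says little. The share was 0.461% without FcM_1944 and 16.8% without FcM_1962.

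The count of all genes called was 495 in the main edgeR test, 427 with the replicate block, 2819 with DESeq2, 4648 with voom quality weights and 171 against a 2-fold change. With 1 library left out it ran from 2 (FbM_1951) to 4394 (FcM_1962). Without the _1962, _1944 or _1951 pair it was 2921, 19 and 0 (beside the 0, 1430 genes at an unadjusted p under 0.05 in edgeR). Without the _1962 pair it was 4766 with the block and 4196 with DESeq2. The cause was not tested.

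The log2 difference in the COL3A1 to COL1A1 ratio turned to 0.019 without the _1951 pair, and ran from -0.67 to 0.13 without 1 library, positive without FcM_1951. The COL1A1 to COL1A2 difference stayed positive in 12 of 12 alternatives (0.28 to 0.94), as did that of the share (1.49 to 10.40). Both FcM ratios of COL1A1 to COL1A2 exceeded both FbM ratios, so leaving out libraries could not turn this sign. These alternatives are not independent. The ratios have no value in _1962 libraries, so leaving those out, or the block, repeats the main difference. Strand columns split the same reads. With the block the differences were -0.27, 0.61 and 4.75 (exact p of 1.0, 0.5 and 0.5). Only 2 pairs had collagen reads and 2 allow no p under 0.5, so these cannot decide. COL3A1 in FbM_1951 rests on 70 reads. Planned pathway lists were not run for want of symbols.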
